A study of Mus musculus with 8 samples.

Results

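Genes of DNA replication and S phase were followed in mouse colon after gut colonization with Candida yeasts. The set holds 43 genes, chosen by symbol for their part in copying DNA. All 43 were found through their Ensembl identifiers among the 52636 identifiers of the count table, and 42 were among the 16107 genes with enough counts to be tested; Fen1 was not. RNA was sequenced from colon of C57BL/6 wild-type females in 3 groups. One group was given C. tropicalis MYA-3404 by mouth (2 libraries), another C. albicans SC5314 (3 libraries), and the third was labelled control (3 libraries). The colonizing dose was 100000000 colony-forming units, and colon was taken at day 30. The study describes its animals as germ-free, kept in gnotobiotic isolators and aged 6 weeks, and what the control mice received is not given. Libraries are numbered within a group, and whether 1 number means 1 animal is not stated. The p-values here rest on the scatter among libraries, part of which could be technical.

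DNA replication begins at origins, where the origin recognition complex, Cdc6 and Cdt1 load rings of Mcm2 to Mcm7 in G1 phase. Cyclin E with its kinase, and the proteins Cdc45 and GINS, turn these rings into moving helicases, and polymerases, a sliding clamp and its loader then copy both strands while nucleotide enzymes supply the bases. Many of these genes are known targets of E2F transcription factors, which switch them on together at the start of S phase. In colon, the cells that replicate DNA are mainly the dividing progenitors in the lower crypt, along with dividing lymphocytes.

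Promoters are shown because some members share letters that E2F factors are known to bind. A promoter of 300 bases (250 before and 50 after the gene start, RefSeq on GRCm38.p6, 1 per gene) was found for 35 of the 43 members. An E2F motif, searched on both strands as TTTCCCGC, TTTGGCGC, TTTCGCGC or TTTGCCGC, was present in 12 of 35 (34.3%), against 2.32% of 27025 promoters and 3.78% of the 11865 promoters of tested genes. The letters CCAAT were present in 21 of 35 (60.0%), against 37.9% of all promoters and of those of tested genes. The letters TTTGAA, the core of the CHR element of mitotic genes, were in 4 of 35 (11.4%), against 18.1% of all promoters and 12.2% of those of tested genes. A match is a run of letters and not a measured binding site. The 6 promoters below are from the 6 roles with the most matches, 1 gene per role, with ties settled by list order. Matches to any of these motifs are in capitals, and they overlap in CCAATTGG of Uhrf1, where both strands hold CCAAT.
Mcm3, chr1:20820263-20820562, minus strand: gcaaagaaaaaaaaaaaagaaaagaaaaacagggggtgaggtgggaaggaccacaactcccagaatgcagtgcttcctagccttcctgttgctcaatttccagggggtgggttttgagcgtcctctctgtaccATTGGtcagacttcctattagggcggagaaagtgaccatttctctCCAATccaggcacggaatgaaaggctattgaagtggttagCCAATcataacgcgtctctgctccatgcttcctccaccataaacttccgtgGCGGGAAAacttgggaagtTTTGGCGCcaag
Orc1, chr4:108579204-108579503, plus strand: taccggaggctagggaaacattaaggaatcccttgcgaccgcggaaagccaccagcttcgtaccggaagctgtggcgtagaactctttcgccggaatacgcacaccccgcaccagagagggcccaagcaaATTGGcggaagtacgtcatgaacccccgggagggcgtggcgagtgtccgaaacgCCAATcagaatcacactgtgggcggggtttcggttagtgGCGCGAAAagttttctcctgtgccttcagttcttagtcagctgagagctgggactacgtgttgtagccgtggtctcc
Cdc45, chr16:18811923-18812222, minus strand: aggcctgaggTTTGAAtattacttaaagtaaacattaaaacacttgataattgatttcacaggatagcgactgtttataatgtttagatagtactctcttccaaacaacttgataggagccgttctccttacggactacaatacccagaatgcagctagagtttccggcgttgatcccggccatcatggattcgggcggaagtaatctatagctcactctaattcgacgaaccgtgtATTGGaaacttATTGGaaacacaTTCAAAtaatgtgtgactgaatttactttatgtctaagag
Pold2, chr11:5878207-5878506, minus strand: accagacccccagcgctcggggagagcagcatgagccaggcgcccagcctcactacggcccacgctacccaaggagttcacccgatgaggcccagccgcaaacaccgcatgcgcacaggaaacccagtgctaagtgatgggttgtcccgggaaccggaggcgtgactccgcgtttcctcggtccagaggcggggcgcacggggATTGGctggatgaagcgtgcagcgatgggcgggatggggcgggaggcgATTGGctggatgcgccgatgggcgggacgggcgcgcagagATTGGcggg
Rfc3, chr5:151651159-151651458, minus strand: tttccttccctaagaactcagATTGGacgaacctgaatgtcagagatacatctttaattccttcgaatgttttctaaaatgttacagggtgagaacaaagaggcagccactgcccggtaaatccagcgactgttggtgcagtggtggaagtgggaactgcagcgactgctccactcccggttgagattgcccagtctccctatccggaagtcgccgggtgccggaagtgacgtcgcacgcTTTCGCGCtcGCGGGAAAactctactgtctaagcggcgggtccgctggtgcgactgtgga
Uhrf1, chr17:56303087-56303386, plus strand: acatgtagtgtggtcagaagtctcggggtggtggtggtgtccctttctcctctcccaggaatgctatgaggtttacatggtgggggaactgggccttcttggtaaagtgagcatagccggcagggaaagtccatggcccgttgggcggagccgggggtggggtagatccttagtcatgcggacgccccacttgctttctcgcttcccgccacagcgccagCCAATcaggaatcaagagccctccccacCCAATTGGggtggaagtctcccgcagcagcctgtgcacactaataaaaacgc
Mcm3 and Rfc3 each held 2 E2F matches and Orc1 held 1, while the capitals in Cdc45, Pold2 and Uhrf1 mark CCAAT or TTTGAA only.

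The libraries held 16195376 to 19761098 counts, and levels are given as CPM, counts scaled to library sizes adjusted by TMM. A gene with 0 counts in a library could still have a level of up to 0.157 to 0.183 CPM there, the value of 3 counts, from counting error only. Colonocytes were present in every library, their 10 markers summing to 13557 to 14259 CPM with C. tropicalis, 14931 to 17568 CPM with C. albicans and 10250.1 to 15016 CPM in controls. Some of these markers, and Cdx2 of the epithelial markers, split the libraries otherwise than by group, with control 3 beside both C. tropicalis libraries. The sodium exchanger gene Slc9a3 had 12.5 and 10.2 CPM with C. tropicalis, 1052, 1517 and 1843 CPM with C. albicans and 1117, 284 and 13.6 CPM in controls. The transcription factor Cdx2 had 26.3 and 28.6 CPM with C. tropicalis, 224, 470.1 and 378 CPM with C. albicans and 339, 192 and 26.9 CPM in controls. Carbonic anhydrase Car1 ran the other way, with 2231 and 2255 CPM with C. tropicalis, 306, 432 and 179.5 CPM with C. albicans and 243, 388 and 1602 CPM in controls. Slc9a3 was thus about as low in control 3 as with C. tropicalis, and results are also given without that library.

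With C. tropicalis the replication genes stood above control almost throughout, although no single member passed the test. Of 42 tested members, 41 had a log2 fold change above 0, where 47.9% of all tested genes did and 52.1% lay below 0. The median over members was 0.54, against -0.02 over all genes. Both C. tropicalis libraries lay above all 3 controls for 33 members, against 16.0% of genes, and below all of them for 0, against 16.5%. Past an adjusted p of 0.05 (Benjamini-Hochberg over the 16107 genes) in edgeR's quasi-likelihood test there were 0 members, where 0.0310% of genes passed. At an unadjusted p under 0.05, 19 members were higher and 0 lower, where 7.33% of genes were higher and 8.05% lower. DESeq2 called 3 members, Ccne1, Mcm3 and Uhrf1, all higher, where it called 1.10% of genes higher and 1.36% lower. Without C. tropicalis 1 the count higher at an unadjusted p under 0.05 was 8, where 3.28% of genes were, and without C. tropicalis 2 it was 12, where 5.49% were. Without control 3 the median was 0.41, 39 members were above 0, and 14 were higher at an unadjusted p under 0.05, where 10.0% of genes were.

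Against C. albicans the separation was wider and had no exception among the members. All 42 tested members were higher with C. tropicalis, where 53.7% of all genes were higher and 46.3% lower, and for all 42 both C. tropicalis libraries lay above all 3 C. albicans libraries, against 23.4% of genes above and 22.4% below. The median log2 fold change was 0.77, against 0.04 over all genes. No member, and 0.0% of genes, passed an adjusted p of 0.05 with edgeR, the smallest adjusted p among members being 0.0646 for Rrm1. At an unadjusted p under 0.05, 38 members were higher and 0 lower, where 8.83% of genes were higher and 14.4% lower. DESeq2 called 23 members, all higher, against 2.27% of genes called higher and 8.71% called lower. The edgeR count of members past the threshold was 8 without C. albicans 1, where 8.20% of genes passed, 9 without control 1 (5.78% of genes) and 9 without control 3 (5.62% of genes). It was 0, with 0.0% of genes, without each of the other 5 libraries.

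**Figure D1:**
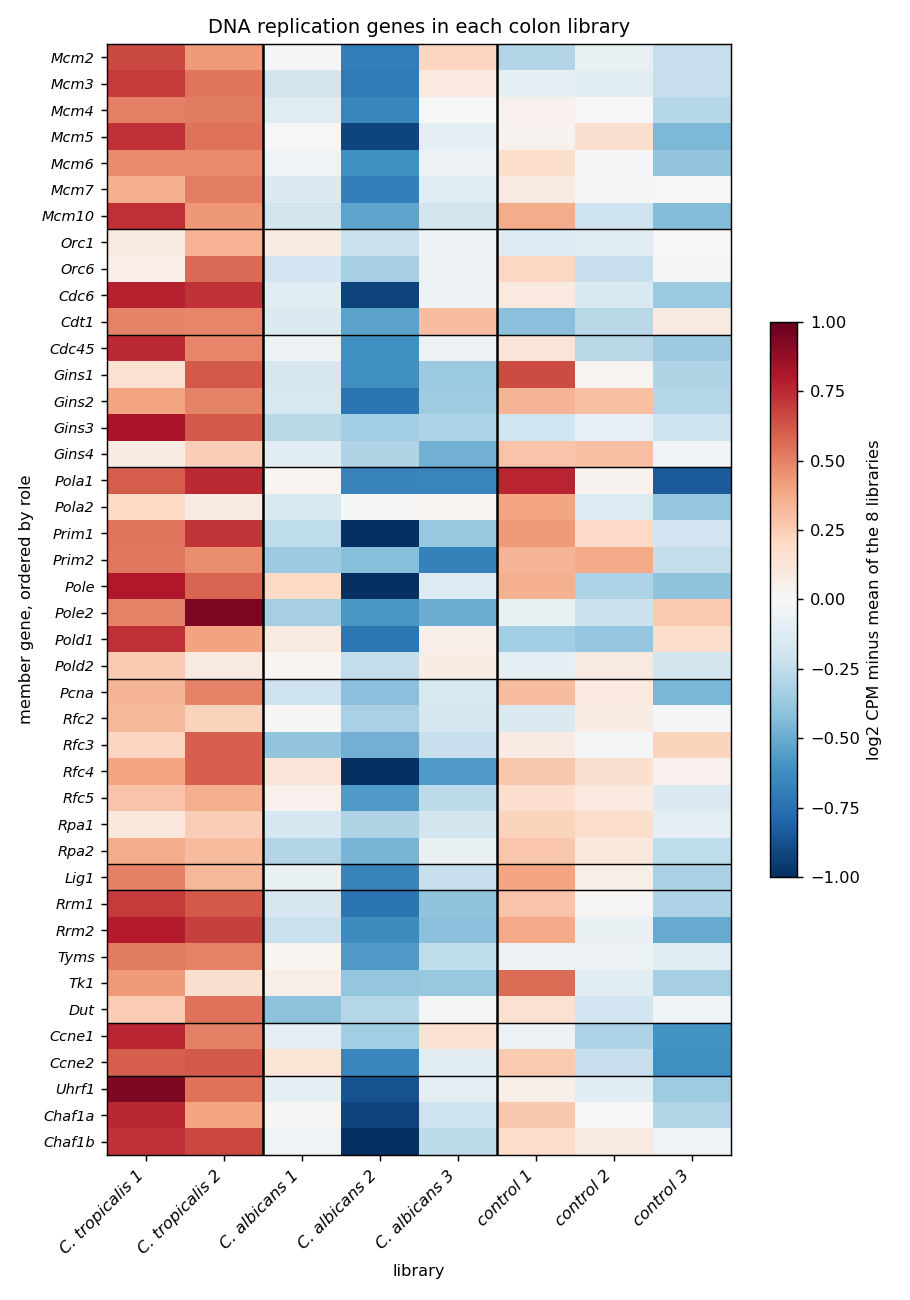
Log2 CPM of the 42 tested members (rows, ordered by role with lines between roles) in the 8 libraries (columns), each minus its mean over the libraries, in red where above and in blue where below, with differences beyond 1 drawn in the end colour. Both C. tropicalis columns are red nearly throughout and C. albicans 2 is the bluest column, being the lowest library for 35 of 42 members.

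The single libraries show which samples set these differences. A C. tropicalis library was the highest of the 8 for 37 of 42 members, against 28.8% of all tested genes, and lowest for 0. C. albicans 2 was the lowest library for 35 of 42 members, against 15.8% of genes. Control 1 was highest for 4 members, control 2 for 1 and control 3 for 0. As a score, the mean log2 CPM of the 42 members centred on the 8 libraries, the C. tropicalis libraries stood at 0.49 and 0.48, the C. albicans libraries at -0.10, -0.59 and -0.18 and the controls at 0.16, -0.03 and -0.23. Control 3, which resembled C. tropicalis in Slc9a3 and Cdx2, had the lowest score of the controls: 41 of 42 members were higher in C. tropicalis 1 than in control 3, and 42 of 42 in C. tropicalis 2, with median log2 differences of 0.75 and 0.69. Against control 1 the same medians were 0.34 and 0.34, with 35 and 36 members higher.

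**Figure D2:**
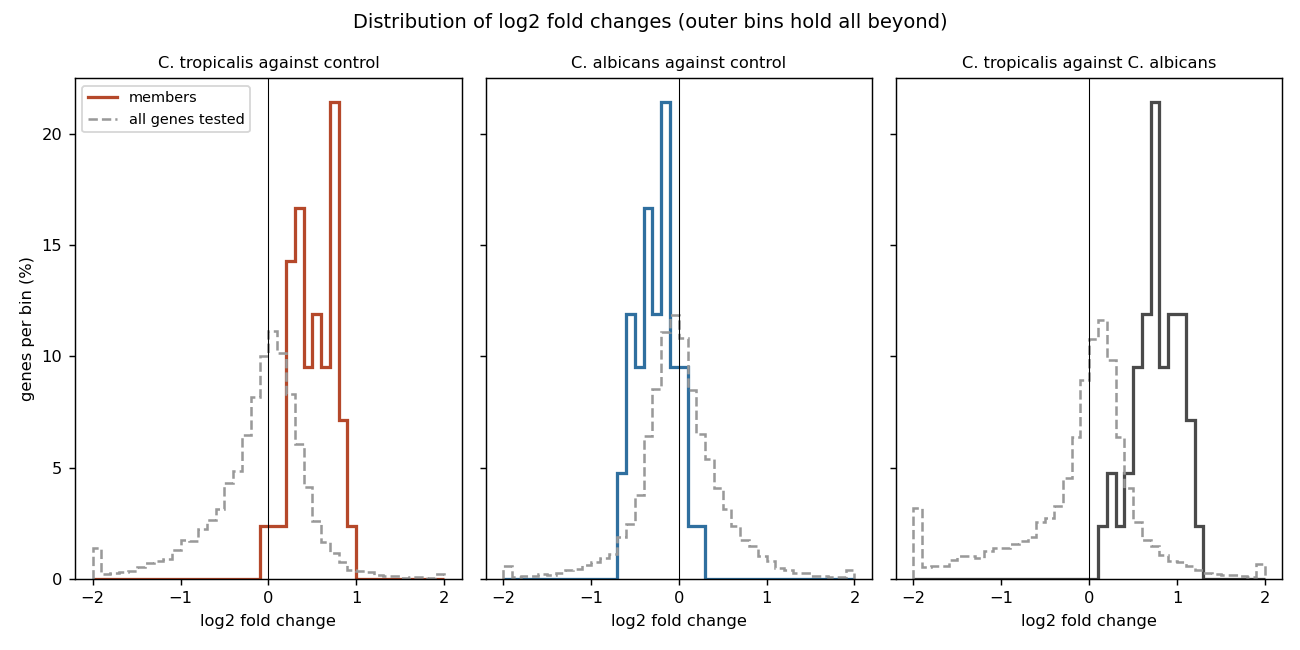
Distribution of fitted log2 fold changes (x axis) as percent of genes per bin of 0.1 (y axis) for the 42 members (solid) and all 16107 tested genes (dashed), in the 3 comparisons; the outermost bins hold all values beyond them. The members lie right of the dashed curve in both C. tropicalis panels, with medians of 0.54 and 0.77, and slightly left of it for C. albicans, with a median of -0.23.

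Among the helicase genes, all 7 were higher with C. tropicalis than in control, with no overlap between the groups and an unadjusted p under 0.05 for each. Of all tested genes, 16.0% were higher without overlap and 7.33% were higher at that unadjusted p. Mcm2, a subunit of the ring, stood at 92.9 and 78.8 CPM with C. tropicalis, 58.3, 36.3 and 68.0 CPM with C. albicans and 47.8, 55.8 and 50.1 CPM in controls. Its log2 fold change over control was 0.74 ± 0.23 (SE; adjusted p = 0.242). Mcm5 stood at 99.6 and 87.7 CPM with C. tropicalis, 60.3, 31.9 and 56.2 CPM with C. albicans and 61.8, 67.1 and 44.0 CPM in controls, so that C. albicans 2 was below every other library. Mcm7 had 73.4 and 81.8 CPM with C. tropicalis, 51.8, 35.7 and 52.7 CPM with C. albicans and 60.9, 56.9 and 57.1 CPM in controls, placing all C. albicans libraries below and both C. tropicalis libraries above the controls. Exons of Mcm7 share 321 bases with Ap4m1 and 64 with Cops6 on the other strand, and the library kit does not keep strand, so such reads cannot be assigned. Mcm3 had the second smallest p of all members against control, with 75.1 and 67.0 CPM with C. tropicalis, 40.9, 28.4 and 49.5 CPM with C. albicans and 43.2, 42.9 and 39.5 CPM in controls and a log2 fold change of 0.76 ± 0.20 (adjusted p = 0.206). Mcm4 and Mcm6 had log2 fold changes over control of 0.59 ± 0.20 and 0.53 ± 0.21. Mcm10, which helps to fire the loaded helicase, stood at 17.4 and 14.1 CPM with C. tropicalis, 9.22, 7.24 and 9.21 CPM with C. albicans and 13.5, 9.05 and 7.74 CPM in controls, with control 1 next below the C. tropicalis pair.

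Genes that load the helicase were less uniform. Cdc6, the loading ATPase, stood at 14.1 and 13.7 CPM with C. tropicalis, 7.64, 4.36 and 7.99 CPM with C. albicans and 8.85, 7.45 and 6.40 CPM in controls, the C. tropicalis libraries being above the other 6 (log2 over control 0.88 ± 0.27, adjusted p = 0.242; over C. albicans 1.06 ± 0.27, adjusted p = 0.0755). Cdt1, its partner in loading, stood at 51.1 and 50.6 CPM with C. tropicalis, 32.7, 24.9 and 44.7 CPM with C. albicans and 27.0, 29.8 and 38.5 CPM in controls. Here C. albicans 3 and control 3 were well above the rest of their groups, and the log2 fold change was 0.68 ± 0.24 over control and 0.58 ± 0.24 over C. albicans. Orc1, the largest subunit of the origin recognition complex, differed little, with 4.17 and 4.99 CPM with C. tropicalis, 4.16, 3.36 and 3.78 CPM with C. albicans and 3.60, 3.63 and 3.93 CPM in controls and log2 0.30 ± 0.24 over control (adjusted p = 0.566). Orc6 had log2 0.34 ± 0.23 over control, with C. tropicalis 1 inside the range of the controls.

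Among the helicase activators Cdc45 and GINS, values over control differed from gene to gene. Cdc45, which rides with the MCM ring, stood at 16.8 and 14.1 CPM with C. tropicalis, 9.67, 6.56 and 9.69 CPM with C. albicans and 11.0, 8.28 and 7.80 CPM in controls (log2 over control 0.77 ± 0.24, adjusted p = 0.239). Gins3 stood at 6.0 and 5.21 CPM with C. tropicalis, 2.81, 2.68 and 2.74 CPM with C. albicans and 2.97, 3.22 and 2.96 CPM in controls, with both C. tropicalis libraries far above a narrow band of the other 6 (log2 0.88 ± 0.24, adjusted p = 0.206). Gins2 had 12.5 and 13.4 CPM with C. tropicalis, 8.49, 5.72 and 7.44 CPM with C. albicans and 12.1, 11.7 and 7.80 CPM in controls, where control 1 and control 2 came close to the C. tropicalis values (log2 0.30 ± 0.25). Gins4 had 21.0 and 23.7 CPM with C. tropicalis, 18.5, 16.2 and 14.3 CPM with C. albicans and 24.3, 24.6 and 19.6 CPM in controls, and with log2 -0.03 ± 0.17 it was the 1 member below control, with C. tropicalis inside the range of the controls. Gins1 likewise had control 1 above both C. tropicalis libraries, with log2 0.22 ± 0.33 over control. Over C. albicans all 5 genes were higher at an unadjusted p under 0.05, where 8.83% of all genes were. Their log2 fold changes ran from 0.45 ± 0.17 for Gins4 to 1.03 ± 0.24 for Gins3. Gins2 shares 2758 exon bases with Gse1 on the other strand.

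Of the polymerase genes, Pole2 and Prim1 had the largest log2 fold changes over C. albicans. Prim1, the catalytic primase subunit that lays RNA primers, stood at 16.7 and 18.9 CPM with C. tropicalis, 9.67, 5.56 and 8.84 CPM with C. albicans and 15.5, 13.2 and 10.1 CPM in controls. The 3 groups did not overlap, with log2 0.46 ± 0.26 over control and 1.15 ± 0.26 over C. albicans (adjusted p = 0.421 and 0.0669 in that order). Pole2, the second subunit of the leading-strand polymerase, had 4.0 and 5.44 CPM with C. tropicalis, 2.25, 1.89 and 2.01 CPM with C. albicans and 2.68, 2.44 and 3.39 CPM in controls and the largest log2 fold change over C. albicans of any member, 1.20 ± 0.29 (adjusted p = 0.0682). It also had the fewest counts of any tested member, 426 over the 8 libraries. Its exons share 245 bases with Gm49384 on the same strand, a gene with 0 counts. Prim2, the other primase subunit, stood at 8.85 and 8.50 CPM with C. tropicalis, 4.78, 4.57 and 3.84 CPM with C. albicans and 7.77, 7.98 and 5.22 CPM in controls, again with no overlap between the 3 groups. Pole, the catalytic subunit of that polymerase, had 12.3 and 10.5 CPM with C. tropicalis, 8.09, 3.36 and 6.40 CPM with C. albicans and 9.02, 5.66 and 5.32 CPM in controls, with a wide spread among the C. albicans libraries and the controls (log2 over control 0.77 ± 0.37). Pold1, the catalytic subunit of the lagging-strand polymerase, stood at 109 and 86.7 CPM with C. tropicalis, 70.0, 39.9 and 68.1 CPM with C. albicans and 51.8, 50.2 and 74.3 CPM in controls, with control 3 the highest control. Pola1, the polymerase that extends primers, had 8.51 and 9.35 CPM with C. tropicalis, 5.68, 3.52 and 3.54 CPM with C. albicans and 9.48, 5.72 and 3.12 CPM in controls, where control 1 exceeded both C. tropicalis libraries. Pola2 and Pold2, accessory subunits, differed least among the polymerases, with log2 over control of 0.15 ± 0.21 and 0.24 ± 0.15.

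Clamp, clamp loader and single-strand binding genes were all 7 above control with C. tropicalis, none with an unadjusted p under 0.05. Of all tested genes, 7.33% were higher at that p. Pcna, the sliding clamp, stood at 119 and 133 CPM with C. tropicalis, 81.1, 70.1 and 84.1 CPM with C. albicans and 116, 100.4 and 68.4 CPM in controls, with the C. tropicalis libraries just above control 1 (log2 0.41 ± 0.21, adjusted p = 0.377). Rfc3, a clamp loader subunit, had 18.4 and 24.0 CPM with C. tropicalis, 12.1, 11.4 and 13.5 CPM with C. albicans and 16.8, 15.7 and 18.6 CPM in controls. Every C. albicans library was below every control for Rfc3, while C. tropicalis 1 was level with control 3. Rfc4, another loader subunit, had 6.17 and 7.08 CPM with C. tropicalis, 5.12, 2.31 and 3.17 CPM with C. albicans and 5.65, 5.24 and 4.84 CPM in controls. Its C. albicans values spread widely, with C. albicans 1 highest and C. albicans 2 lowest. Rfc2 and Rfc5 of the loader and Rpa2, which coats single strands with Rpa1, had log2 fold changes over control of 0.30 ± 0.14, 0.28 ± 0.19 and 0.28 ± 0.19. The log2 fold changes over C. albicans in this group of genes ran from 0.40 ± 0.14 for Rpa1 to 0.91 ± 0.33 for Rfc4. All 7 were higher at an unadjusted p under 0.05, where 8.83% of all genes were. Lig1, the ligase that seals Okazaki fragments, stood at 79.4 and 70.5 CPM with C. tropicalis, 53.4, 35.3 and 47.6 CPM with C. albicans and 73.5, 58.4 and 44.9 CPM in controls, with control 1 between the C. tropicalis libraries. Fen1, the nuclease that trims those fragments, had only 32 counts over all 8 libraries and was not tested. Its levels were 0.286 and 0.227 CPM with C. tropicalis, 0.281, 0.210 and 0 CPM with C. albicans and 0.457, 0.298 and 0.0538 CPM in controls. Its exons share 1909 bases with the antisense gene Gm10143, and how the counting handled such reads is not given in the sources used here.

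Nucleotide supply genes held the 2 smallest p-values of all members between the species. Rrm1, the large subunit of ribonucleotide reductase (ENSMUSG00000030978, chr7:102441695-102469771 on GRCm38), stood at 59.6 and 55.9 CPM with C. tropicalis, 32.7, 22.0 and 27.7 CPM with C. albicans and 44.5, 36.8 and 29.6 CPM in controls. Its mean was 57.7 ± 2.57 CPM with C. tropicalis and 27.5 ± 5.31 CPM with C. albicans (SD, n = 2 and 3), which gave log2 1.07 ± 0.20 (adjusted p = 0.0646 with edgeR and 0.000373 with DESeq2). Rrm2, the small subunit (ENSMUSG00000020649, chr12:24708241-24714146), had 23.4 and 21.8 CPM with C. tropicalis, 11.7, 8.82 and 10.2 CPM with C. albicans and 17.6, 13.0 and 9.57 CPM in controls and log2 1.14 ± 0.25 (adjusted p = 0.0658). Both subunits were thus more than 2-fold higher with C. tropicalis than with C. albicans. Over control, Rrm1 had log2 0.64 ± 0.20 and Rrm2 0.75 ± 0.25 (adjusted p = 0.244 and 0.253). Tyms, which makes thymidylate, stood at 33.2 and 32.7 CPM with C. tropicalis, 23.4, 15.6 and 19.4 CPM with C. albicans and 22.2, 22.2 and 21.5 CPM in controls, a narrow band in controls below both C. tropicalis libraries. Tk1, the salvage kinase for thymidine, departed from them: 43.3 and 36.0 CPM with C. tropicalis, 33.7, 24.7 and 24.8 CPM with C. albicans and 47.6, 30.1 and 25.7 CPM in controls, the top value being control 1. Dut, which removes dUTP, had log2 0.42 ± 0.17 over control and 0.64 ± 0.17 over C. albicans.

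Cyclin E held the largest log2 fold change over control. Ccne1, the cyclin that drives entry into S phase (ENSMUSG00000002068, chr7:38097984-38107534), stood at 12.6 and 10.5 CPM with C. tropicalis, 6.97, 5.83 and 8.23 CPM with C. albicans and 7.14, 5.96 and 4.89 CPM in controls. Its log2 fold change over control, with the smallest p of the members, was 0.95 ± 0.24 (adjusted p = 0.190 with edgeR, 0.0326 with DESeq2). Ccne2 was sparser, with 5.48 and 5.55 CPM with C. tropicalis, 3.99, 2.31 and 3.35 CPM with C. albicans and 4.34, 3.10 and 2.37 CPM in controls. Uhrf1, which brings the maintenance methyltransferase to newly copied DNA (ENSMUSG00000001228, chr17:56303321-56323486), had 101 and 76.8 CPM with C. tropicalis, 49.2, 28.7 and 49.2 CPM with C. albicans and 54.9, 48.5 and 41.2 CPM in controls. Its mean of 88.8 ± 16.9 CPM with C. tropicalis compared with 48.2 ± 6.85 CPM in controls (SD, n = 2 and 3), which gave log2 0.88 ± 0.24 (adjusted p = 0.210). Chaf1a, a subunit of the histone chaperone CAF-1, stood at 30.4 and 23.7 CPM with C. tropicalis, 18.2, 9.50 and 15.6 CPM with C. albicans and 21.8, 18.1 and 14.7 CPM in controls and shares 4648 exon bases with Ubxn6 on the other strand. Chaf1b, its partner, had log2 1.14 ± 0.31 over C. albicans, where C. albicans 2 was again lowest.

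**Figure D3:**
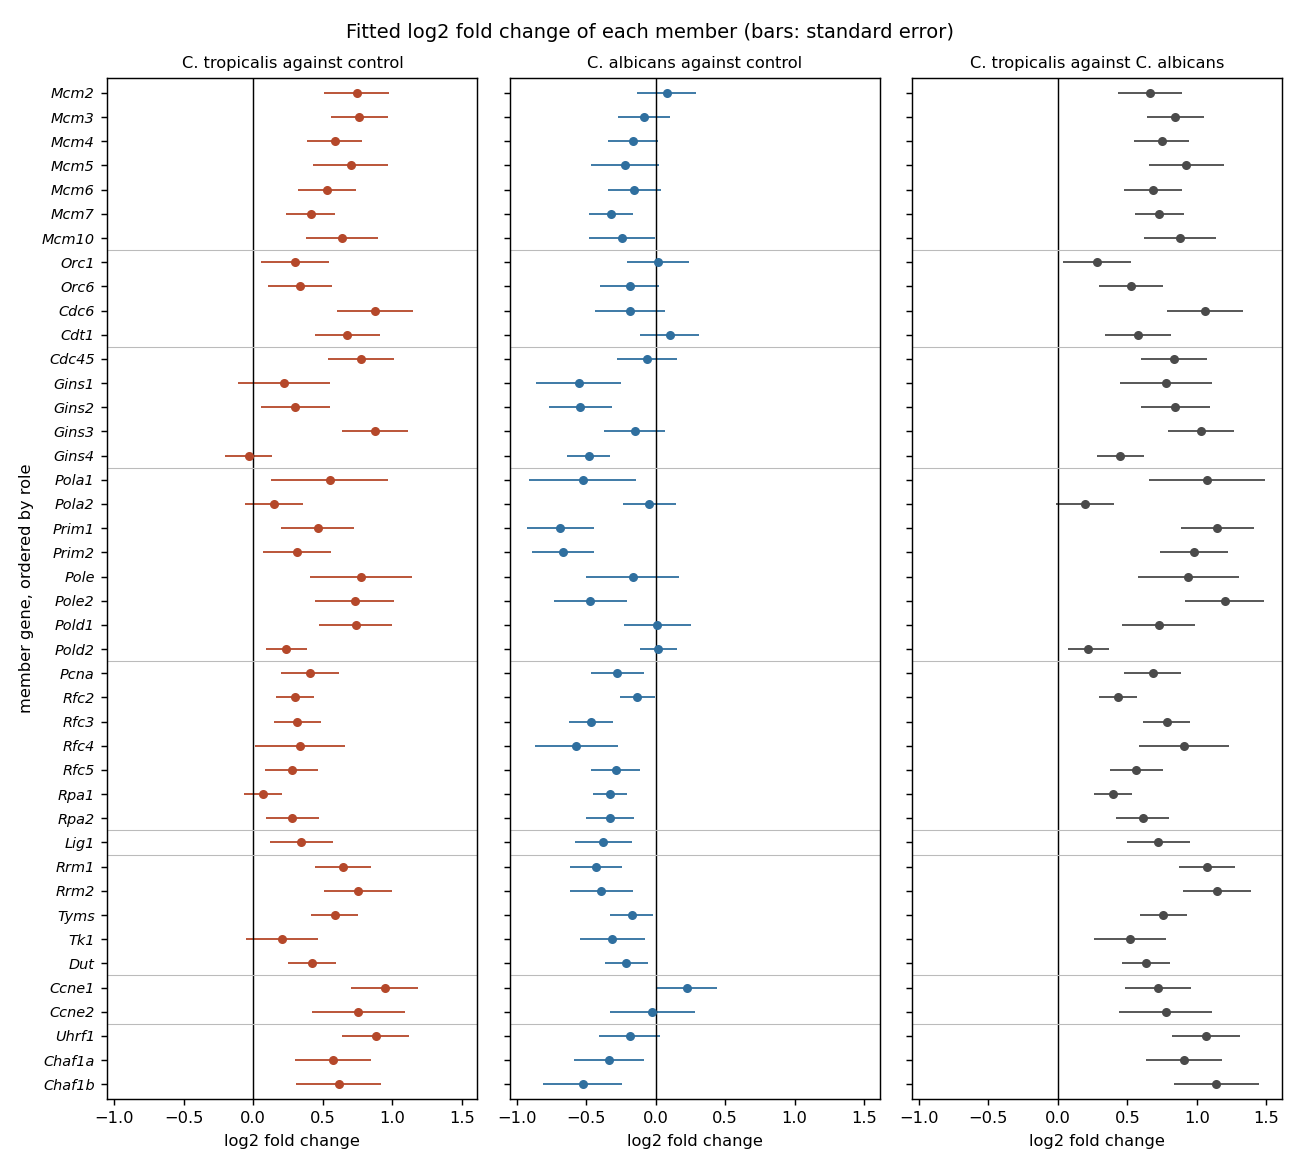
Fitted log2 fold change (points) with its standard error (bars) for each of the 42 tested members, ordered by role, in the 3 comparisons. Against control the C. tropicalis values run from -0.03 (Gins4) to 0.95 (Ccne1), and against C. albicans from 0.20 (Pola2) to 1.20 (Pole2).

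With C. albicans the members lay somewhat below control, and 0 passed the test. Of 42 members, 36 had a log2 fold change below 0, where 51.8% of all genes did and 48.2% lay above 0, with a median of -0.23 against -0.02. With edgeR 0 members passed, where 0.0435% of genes did, and DESeq2 also called 0 members, where it called 2.65% of genes higher and 0.442% lower. At an unadjusted p under 0.05 there were 7 members lower, Gins2, Gins4, Prim1, Prim2, Rfc3, Rpa1 and Rrm1, and 0 higher, where 6.31% of genes were lower and 9.13% higher. The groups did not overlap for 8 members, all lower, against 9.57% of genes lower and 9.82% higher. Gins4 had log2 -0.48 ± 0.15 (adjusted p = 0.247), Rfc3 -0.46 ± 0.16 (adjusted p = 0.259) and Prim2 -0.67 ± 0.22 (adjusted p = 0.259). Prim1, at -0.69 ± 0.24, and Rfc4, at -0.57 ± 0.30, had the largest differences beside Prim2. The median was -0.13 without C. albicans 2, -0.13 without control 1 and -0.33 without control 3, while the count lower at an unadjusted p under 0.05 ran from 1 without control 2, where 3.77% of genes were lower, to 13 without control 3, where 5.53% were. Against control 3 itself, 29 of 42 members were higher in C. albicans 1 and 22 in C. albicans 3. Both comparisons with control use the same 3 control libraries.

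Per kilobase of exon, a rough scale for comparing genes, the members spanned a wide range. The length joins all annotated exons of a gene, which can exceed the transcript made in colon. How reads in exons shared with other genes were counted is not given. Pcna and Pold2 stood highest, at 40.2 and 40.2 CPM per kb averaged over the 8 libraries. Mcm5 followed at 15.9, and Pole and Pola1, both catalytic polymerase subunits, were the lowest tested members at 0.680 and 0.694. The Mcm2 to Mcm7 genes, whose products form rings with equal parts of each, were within 1.76-fold to 2.42-fold of each other in a library, Mcm4 being lowest in each of the 8 except control 1. Mcm4 had 10.3 and 10.4 CPM per kb with C. tropicalis, 6.66, 4.61 and 7.20 with C. albicans and 7.48, 7.24 and 5.93 in controls. Across the 42 members the level per kb and the log2 fold change had Pearson r = -0.22 for C. tropicalis over control, 0.23 for C. albicans over control and -0.41 for C. tropicalis over C. albicans (Spearman rho -0.19, 0.21 and -0.45). These describe genes that share the same libraries.

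**Figure D4:**
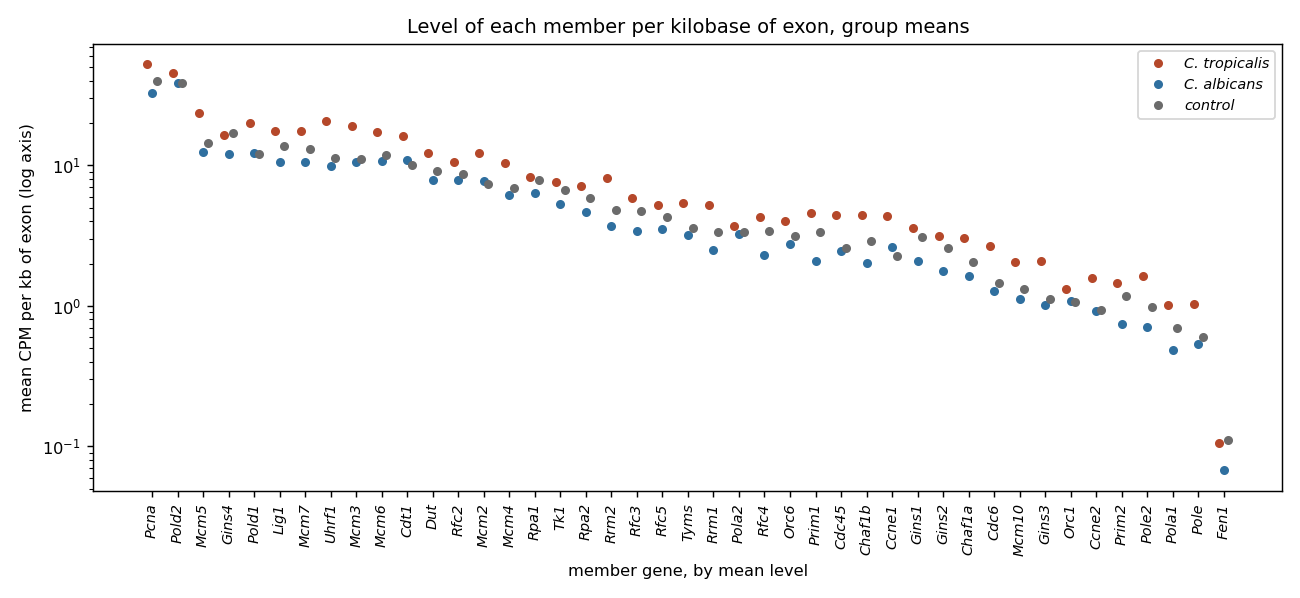
Group mean CPM per kb of exon (log axis) for the 43 members, ordered by their mean over the 8 libraries. The points run from 52.4 for Pcna with C. tropicalis to 0.0676 for Fen1 with C. albicans. Averaged over the 8 libraries, levels run from about 40.2 for Pold2 and Pcna to 0.0935 for Fen1. The C. tropicalis point lies above the C. albicans point for each of the 42 tested members.

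Other genes of replication, listed beside the members, were mostly higher with C. tropicalis than with C. albicans as well. With edgeR 0 passed in any comparison. Of all genes, 0.0% passed between the Candida groups, 0.0310% for C. tropicalis over control and 0.0435% for C. albicans over control. With C. tropicalis against C. albicans, 13 of 13 further licensing genes were higher (median log2 0.45), as were 17 of 18 further fork genes (0.51), 13 of 13 chromatin genes (0.39), 11 of 14 nucleotide genes (0.35) and 23 of 29 genes of G1/S control (0.30). Of all genes, 53.7% were higher. DESeq2 called 3, 4, 4, 1 and 3 of them higher in that order, where it called 2.27% of genes higher. It called 1 gene of G1/S control lower, where it called 8.71% of genes lower. The histone acetyltransferase Hat1, which acts on new histone H4, had log2 0.91 ± 0.16 (adjusted p = 0.0646) and deoxycytidine kinase Dck 0.93 ± 0.20 (adjusted p = 0.0669). The E2F activator gene E2f2 had 0.73 ± 0.16 (adjusted p = 0.0669). Against control the higher counts were 10 of 13, 16 of 18, 11 of 13, 12 of 14 and 22 of 29 in the same order, with medians from 0.22 to 0.38. Of all genes, 47.9% were higher. DESeq2 called 1 fork gene and 3 genes of G1/S control higher there and 0 lower, where it called 1.10% of genes higher and 1.36% lower. The D-type cyclin genes Ccnd1 and Ccnd2, which act before cyclin E, had log2 0.61 ± 0.13 and 1.04 ± 0.23 over control (adjusted p = 0.153 and 0.160). With C. albicans against control, Ccnd1 was also higher, at 0.48 ± 0.12, and E2f2 lower, at -0.61 ± 0.15 (adjusted p = 0.177 and 0.177). In that comparison the lists had 10, 15, 12, 9 and 18 of their genes lower, where 51.8% of all genes were. The 9 of 14 nucleotide genes and 18 of 29 genes of G1/S control were near that share. DESeq2 called 1 gene of G1/S control higher and 1 lower there, where it called 2.65% of genes higher and 0.442% lower.

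Genes of G2 and mitosis, the next phases of the cycle, gave a less orderly picture. With C. tropicalis 26 of 26 were above control (median log2 0.42), with no overlap between groups for 4, against 16.0% of all genes, and 26 of 26 were above C. albicans (median 0.79), with no overlap for 17, against 23.4% of all genes. With C. albicans 25 of 26 were below control (median -0.36), where 51.8% of all genes were. DESeq2 called 4 of the list higher with C. tropicalis than with C. albicans, where it called 2.27% of genes higher. It called 0 in either comparison with control. Mki67, the Ki-67 proliferation marker, had log2 1.13 ± 0.35 over C. albicans (adjusted p = 0.103). The score of this list was 0.66 and 0.35 with C. tropicalis, 0.23, -0.58 and -0.72 with C. albicans and 0.65, -0.16 and -0.45 in controls. Control 1 was as high as C. tropicalis 1 for mitotic genes, while for replication genes it was below both C. tropicalis libraries.

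**Figure D5:**
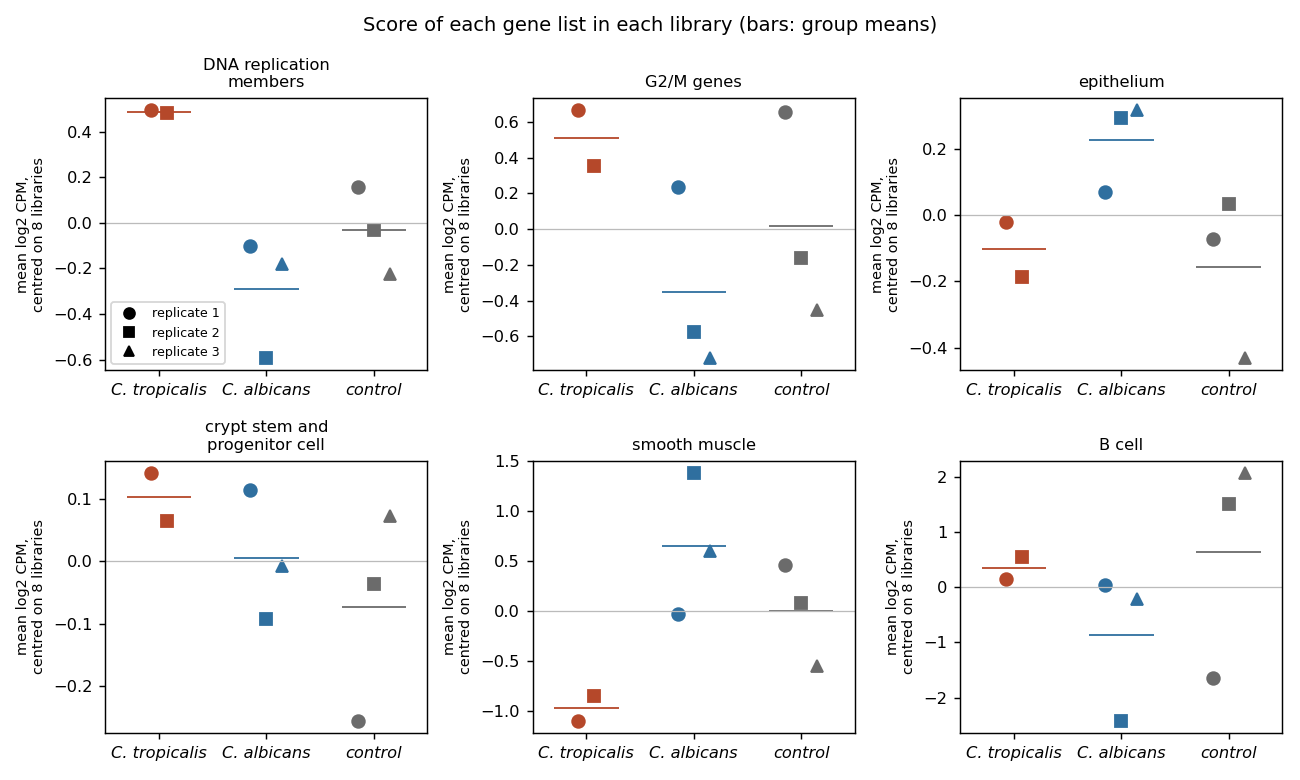
Score of 6 gene lists (mean log2 CPM of the tested genes of a list, centred on the 8 libraries; y axes differ) in each library, with horizontal bars at group means and marker shapes for replicate numbers. Both C. tropicalis libraries, at 0.49 and 0.48, are the highest for replication members and the lowest for smooth muscle, at -1.10 and -0.85.

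Markers of other cells differed between the groups too. In whole tissue, fewer cells of a type and less RNA per cell cannot be told apart. All 18 smooth muscle markers were lower with C. tropicalis than in control (median log2 -0.98) and all 18 were higher with C. albicans (median 0.74). Between the Candida groups all 18 were lower with C. tropicalis (median -1.70). With edgeR 0 passed the threshold. DESeq2 called 16 lower with C. tropicalis than with C. albicans, where it called 8.71% of genes lower. Against control it called 4 lower with C. tropicalis, where it called 1.36% of genes lower, and 0 with C. albicans. Summed, they came to 4998 to 6422 CPM with C. tropicalis, 12116 to 33870.3 CPM with C. albicans and 8574 to 16444 CPM in controls, and none was at 0. Actg2, the enteric smooth muscle actin, had 607 and 796 CPM with C. tropicalis, 2029, 6498 and 3268 CPM with C. albicans and 2348, 2025 and 1371 CPM in controls. When the fit also held the smooth muscle score, members higher at an unadjusted p under 0.05 numbered 4 over control, where 3.91% of genes were higher, and 5 over C. albicans, where 1.90% were, against 19 and 38 members without the score. Members above 0 numbered 41 over control and 40 over C. albicans, with medians of 0.39 and 0.63.

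Epithelial markers summed, over 14 genes with none at 0, to 25710.4 to 29081 CPM with C. tropicalis, 24476 to 28531 CPM with C. albicans and 21608 to 25180.0 CPM in controls, both C. tropicalis libraries lying above the controls. As a score, in which each gene weighs the same, they stood at -0.02 and -0.19 with C. tropicalis, 0.07, 0.29 and 0.32 with C. albicans and -0.07, 0.03 and -0.43 in controls, so that C. albicans was highest. The replication score minus the epithelial score was 0.51 and 0.67 with C. tropicalis, -0.17, -0.89 and -0.50 with C. albicans and 0.23, -0.07 and 0.21 in controls. The epithelial score includes Cdx2, which was low in both C. tropicalis libraries and in control 3. The difference of scores thus rests partly on that gene, and it was not computed without it. Crypt stem and progenitor markers summed to 467 to 542 CPM with C. tropicalis, 457 to 540.2 with C. albicans and 356 to 464 in controls. Their score overlapped between groups, at 0.14 and 0.06 with C. tropicalis, 0.11, -0.09 and -0.01 with C. albicans and -0.255, -0.04 and 0.07 in controls. Lgr5, the crypt stem cell receptor, had 6.28 and 6.29 CPM with C. tropicalis, 5.28, 1.84 and 3.72 CPM with C. albicans and 4.74, 5.60 and 7.96 CPM in controls, so its groups overlapped. Rnf43 did not overlap, with 78.9 and 73.4 CPM with C. tropicalis, 58.0, 31.9 and 42.7 CPM with C. albicans and 28.6, 39.7 and 55.2 CPM in controls. Its log2 fold change over control was 0.89 ± 0.29 (adjusted p = 0.254 with edgeR). Of the 12 markers, 9 were higher and 3 lower with C. tropicalis than in control, where 47.9% of all genes were higher. Over C. albicans 8 were higher and 4 lower, where 53.7% of genes were higher.

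B cell markers varied widely inside the groups. The 13 B cell markers summed to 124 to 162 CPM with C. tropicalis, 32.3 to 124 with C. albicans and 42.6 to 475 in controls, none being at 0. The B cell score was 0.15 and 0.54 with C. tropicalis, 0.04, -2.42 and -0.22 with C. albicans and -1.65, 1.495 and 2.06 in controls. Control 3 had the highest B cell score and the lowest replication score of the controls, while control 1 had the lowest B cell score and the highest replication score of the controls. C. albicans 2 was the lowest of all libraries in both scores, with -0.59 for replication. Of 9 germinal centre markers, 7 were tested, and the list summed to 37.1 to 42.5 CPM with C. tropicalis, 34.9 to 44.1 with C. albicans and 33.7 to 52.1 in controls. Of the other cell type lists, 13 of 13 enteric neuron and glia markers, 8 of 10 fibroblast markers, 6 of 9 goblet cell markers, 6 of 7 plasma cell markers and 6 of 9 tested T cell markers were lower with C. tropicalis than with C. albicans. Of all genes, 46.3% were lower. The median log2 fold changes of these lists were -1.45, -0.62, -0.08, -0.55 and -0.16, so the goblet and T cell lists differed little. Against control the counts lower with C. tropicalis were 13, 9, 3, 3 and 9 in the same order, where 52.1% of all genes were lower. With edgeR 0 of these genes passed in any comparison. Between the Candida groups DESeq2 called 9, 4, 2, 0 and 0 lower with C. tropicalis, in that order, and 0 higher. Over all genes it called 8.71% lower and 2.27% higher there. The part of smooth muscle, of lymphocytes, and of the split in Slc9a3 and Cdx2 in the replication differences was not tested beyond these values.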

How the data were processed

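RNA from colon was sequenced in 8 libraries of 3 groups, made with the NEBNext Ultra kit per the labels' protocols. Alignment and counting tools are listed in the submitters' processing notes without roles or settings, as TopHat2 2.0.12, HTSeq 6.1 and DESeq 1.18.0, with build mm10. The deposited table holds raw counts per Ensembl gene for each library, with no normalization, and these counts were used as they are. Symbols, exon lengths and positions came from GENCODE M21 (GRCm38), which held 52489 of 52636 identifiers.

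Genes with low counts were removed by filterByExpr, leaving 16107 and dropping 36529. All 8 libraries entered 1 edgeR 4.0.16 quasi-likelihood fit with TMM factors and group as the only term, from which 3 comparisons were taken, with Benjamini-Hochberg adjustment over all genes tested and a threshold of 0.05. Log2 CPM for scores used a prior count of 2. The script was tested on simulated data. Libraries of a group differed beyond counting noise, with a chi-square of 21 to 80.5 per degree of freedom over genes, so none was counted as a duplicate.

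Values in every library were fixed for 24 members, plus the 3 with the smallest p and the 3 with the largest log2 fold change per comparison, and up to 2 genes of each other list per comparison by smallest p. The members and lists were chosen with earlier results of these data known. Alternatives were DESeq2 1.42.0, its size factors in edgeR, no filter, only the 2 groups compared, replicate number as a block, a smooth muscle score as covariate, and each library left out. Counts of members above or below 0 and at an unadjusted p under 0.05 were added after seeing the data.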

Additional observations from a re-analysis of the deposited data

Results flagged for a closer look

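For 5 members the C. tropicalis and C. albicans libraries lay on opposite sides of all controls: Mcm7, Gins3, Prim1, Prim2 and Pole2. This pattern held for 5 of 42 members and for 0.627% of all tested genes. Mcm7 had log2 fold changes over control of 0.41 with C. tropicalis and -0.32 with C. albicans. Gins3 had 0.88 with C. tropicalis and -0.15 with C. albicans. Prim1 had 0.46 with C. tropicalis and -0.69 with C. albicans, and Prim2 had 0.31 with C. tropicalis and -0.67 with C. albicans. Pole2 had 0.73 with C. tropicalis and -0.47 with C. albicans. The direct difference between the Candida groups tests whether their differences from control are unequal. With edgeR its adjusted p was 0.0682 for Mcm7, 0.0669 for Gins3, 0.0669 for Prim1, 0.0729 for Prim2 and 0.0682 for Pole2. None passed 0.05, while DESeq2 called all 5. The 5 were picked by their separation in the same libraries, so these tests give no independent support for it.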

How the results depend on the processing

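Genes past the threshold numbered 5 for C. tropicalis against control, 7 for C. albicans against control and 0 for C. tropicalis against C. albicans, and the members past it were 0 in each. DESeq2 gave 380, 461 and 1753 genes in that order, with 3, 0 and 23 members, and no filter gave 71, 119 and 1127 genes, with 0, 0 and 12 members. Using only the 2 groups compared gave 0, 8 and 858 genes, with 0, 0 and 7 members. With replicate number as a block 0 genes passed in each comparison and the member medians were 0.49, -0.23 and 0.78. Deviations of same-numbered libraries correlated at 0.156 and 0.147 between C. tropicalis and C. albicans, at -0.0188 and 0.029 between C. tropicalis and control, and at -0.392, -0.0795 and -0.128 between C. albicans and control. The last pair of groups, the one with 3 pairs, did not exceed 0.1, and no label ties the numbers to an animal or batch, so the numbers were not taken as pairing. With the smooth muscle covariate the genes past the threshold were 0, 9 and 0. Members at an unadjusted p under 0.05 were 4 higher, 4 lower and 5 higher, where 3.91%, 4.02% and 1.90% of genes were. In C. albicans against control 1 member was also higher, where 7.35% of genes were. Without the covariate the members numbered 19, 7 and 38, where 7.33%, 6.31% and 8.83% of genes did so. Under that covariate alone, Cdt1 (-0.0315) and Pold1 (-0.2097) turned below 0 for C. tropicalis against C. albicans; the cause was not tested.

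Leaving out 1 library at a time gave 0 to 192 genes for C. tropicalis against control, 0 to 254 for C. albicans against control and 0 to 1315 for C. tropicalis against C. albicans, with 0, 0 and 0 to 9 members. The highest gene counts came without control 3, C. albicans 1 and C. albicans 1. The highest member count, 9, came without control 1 and again without control 3. Members at an unadjusted p under 0.05 ranged over 8 to 23, 1 to 13 and 25 to 39, and member medians over 0.41 to 0.60, -0.33 to -0.13 and 0.61 to 0.83. Members above 0 stayed at 39 to 42 for C. tropicalis against control and at 42 against C. albicans, and members below 0 ranged over 27 to 40 for C. albicans against control. Where C. tropicalis was left with 1 library, that library was assumed to vary like the other groups. Of 770 values for named members under the alternatives, 712 kept direction and side of the threshold, 56 kept direction and passed the threshold, and 2 turned round. With 2 or 3 libraries a group, the residual degrees of freedom were 5.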
